A study of Mus musculus with 6 samples.

Results

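The aryl hydrocarbon receptor (AhR) and the phase I and phase II detoxification enzymes outside the cytochrome P450 family were followed in chemically induced mouse skin tumors and in healthy skin. The 9 genes were chosen by name, with earlier results of these data known. They are Ahr, its repressor Ahrr and its target Tiparp, and the enzymes Ephx1, Ugt1a6a, Nat2, Sult1a1, Fmo1 and Fmo2. All 9 were on the array, with 15 of its 55681 probes, and all 9 were among the 24756 genes and transcripts tested. The tumors were 3 biopsies labelled cSCC (cutaneous squamous cell carcinoma) from female FVB/N mice whose skin was painted with DMBA and then, for 6 weeks, with the tumor promoter PMA, also called TPA. DMBA was given again in week 8, and PMA for a further 14 weeks. They were set against 3 biopsies of healthy, acetone-painted skin of the same sex and strain. Samples were collected at various times of the protocol, and neither the mouse nor the time of each biopsy is given. No skin painted with DMBA and PMA but free of tumor was measured, so an effect of the tumor and one of DMBA and PMA cannot be told apart in any result.

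The receptor is a ligand-activated transcription factor that waits in the cytoplasm with HSP90 chaperones. On binding a planar aromatic compound it enters the nucleus, pairs with ARNT and binds DNA at the core letters GCGTG. Its best known targets are Cyp1a1 and Cyp1b1, and it also switches on 2 of its own inhibitors: AHRR competes with it for ARNT, and TIPARP attaches ADP-ribose to it. DMBA is a polycyclic aromatic hydrocarbon that activates the receptor, and in mouse skin it becomes a mutagen through oxidation by CYP1 enzymes and hydrolysis by the epoxide hydrolase EPHX1. The other enzymes add glucuronate (UGT), an acetyl group (NAT), sulfate (SULT) or oxygen (FMO) to foreign compounds and to some of the body's own.

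Values are log2 signals relative to the 75th percentile of their array, so 0 is the level of that percentile and each unit is a doubling. A probe's level depends on its sequence, so a brighter probe does not mean a more abundant RNA. A gene is said to have risen or fallen only where limma's test gave a Benjamini-Hochberg adjusted p under 0.05 over all 24756 features. Of the 9 genes, 2 rose (Tiparp, Nat2), 5 fell (Ahrr, Sult1a1, Fmo2, Fmo1, Ugt1a6a) and 2 did not pass (Ahr, Ephx1). Over all features 25.9% passed, 10.3% higher and 15.6% lower in tumors. The 3 tumors lay wholly apart from the 3 healthy skins in 7 of the 9 genes, as they did in 49.7% of all features. The median log2 fold change was -2.0 over the 9 genes and -0.16 over all features. The count over all features was 3840 without tumor 2 and 4059 without healthy skin 2, against 6420 with every array.

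**Figure D1:**
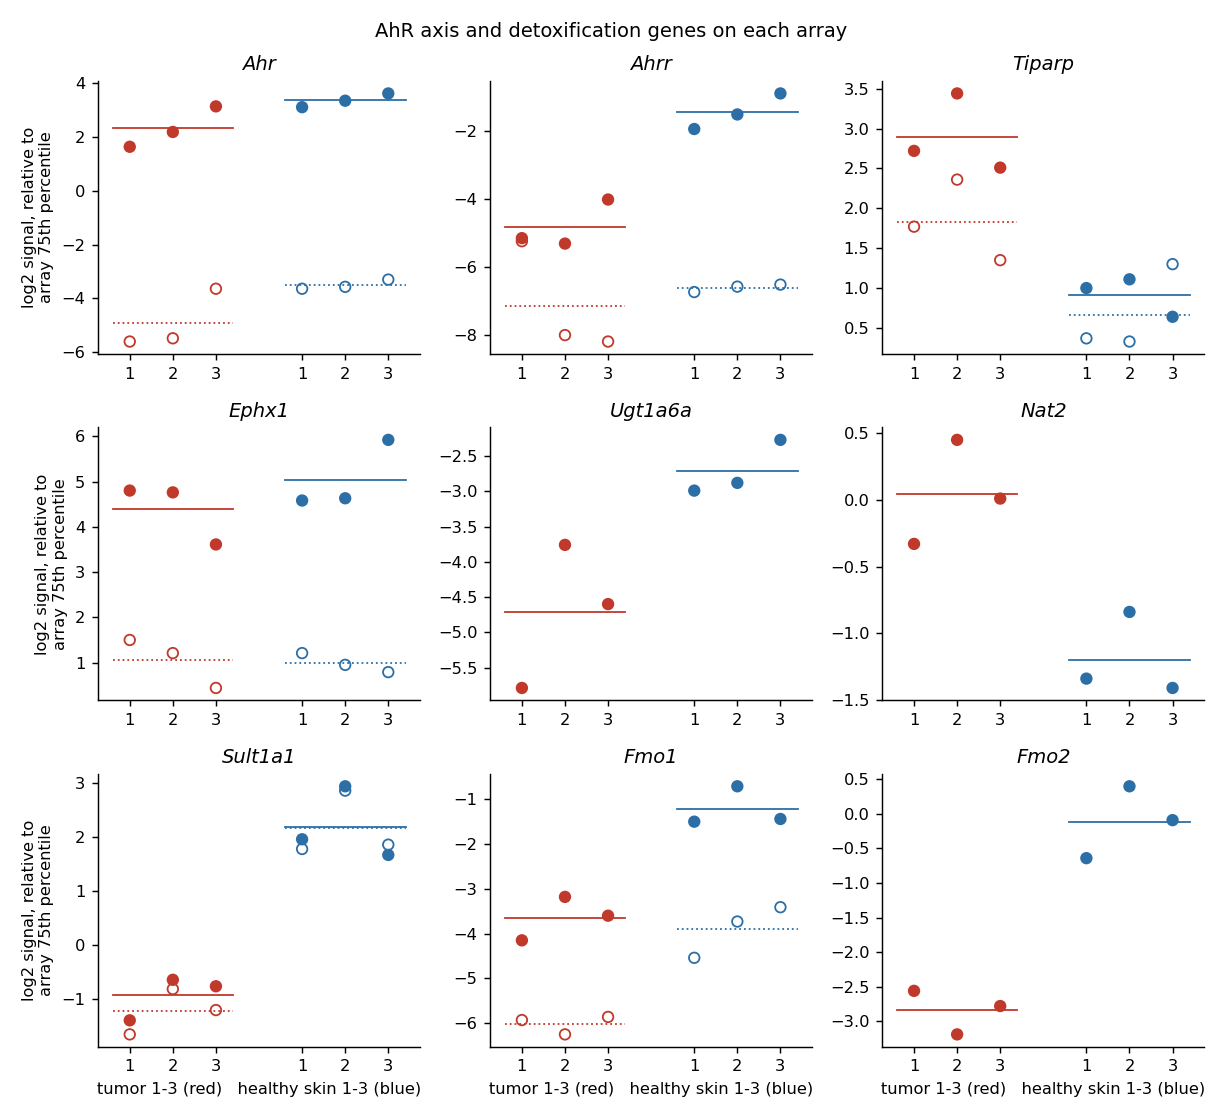
Log2 signal relative to the array's 75th percentile (y axis, one scale per panel) of each gene on the 3 tumor arrays (red, left) and the 3 healthy skin arrays (blue, right). Filled points are the probe that stood for the gene with its group mean as a solid line, and open points are its other probe with a dotted line. Tumors lie above healthy skin for Tiparp and Nat2 and below it for Ahrr, Ugt1a6a, Sult1a1, Fmo1 and Fmo2, while the groups overlap for Ahr and Ephx1.

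Skin markers were present in both groups. The basal keratinocyte genes Krt5, Krt14 and Trp63 were well above background on every array and did not pass the test. Krt15 did not pass either (log2 fold change -2.72, limma adjusted p = 0.113). It had 7.65, 5.14 and 2.48 in tumors, against 7.6, 7.82 and 8.01 in healthy skin. Krt1 and Krt10 of the suprabasal layers fell. The summed signal of these 6 keratinocyte markers was 828 to 941 in tumors and 1070 to 1600 in healthy skin. The Krt1 call was lost when any single array other than tumor 3 was left out, and that of Krt10 without healthy skin 2 or healthy skin 3 (log2 fold changes of -4.03 to -2.27 and -4.02 to -2.41 over the single arrays left out). Markers of some other cell types moved with the groups. All 6 of 6 skeletal muscle markers fell, with a summed linear signal of 16.9 to 31.3 in tumors and 434 to 817 in healthy skin. So did 4 of the 6 sebaceous gland markers measured (1.36 to 2.90 in tumors, 7.03 to 13.9 in healthy skin) and 4 of 6 adipocyte markers (66.7 to 217 in tumors, 111 to 454 in healthy skin), and 3 of 5 neutrophil markers rose (Cxcr2, Retnlg and Mmp8), although the summed neutrophil signal, most of it from Csf3r, was 140 to 152 in tumors and 193 to 259 in healthy skin. Of the T cell markers 2 of 4 fell (1.39 to 2.79 in tumors, 6.75 to 20.6 in healthy skin), and of the Schwann cell markers 3 of 4 (8.08 to 21.0 in tumors, 9.66 to 19.3 in healthy skin). In other lists, 1 of 5 endothelial and 1 of 6 macrophage markers rose, and of 6 fibroblast markers 1 rose and 2 fell. The summed endothelial signal, most of it from Kdr, was nevertheless lower in tumors (9.64 to 11.8, against 12.7 to 69 in healthy skin). Those of macrophages (17.9 to 55.4 in tumors, 26.8 to 39.3 in healthy skin) and fibroblasts (233 to 464 in tumors, 210 to 363 in healthy skin) overlapped. None of the 4 melanocyte and 6 hair follicle sheath markers passed. The summed hair follicle sheath signal varied widely within each group (2.89 to 104 in tumors, 4.91 to 411 in healthy skin). Each sum is in multiples of the array's 75th percentile signal. None of the markers of these lists that were measured was below background on every tumor array. In whole-tissue RNA, fewer cells of a type and less RNA per cell cannot be told apart, and the part of tissue make-up in the results below was not tested.

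The receptor itself did not pass the test. Ahr had log2 signals of 1.63, 2.18 and 3.13 in tumors 1 to 3, against 3.1, 3.34 and 3.61 in healthy skins 1 to 3 (probe on chromosome 12, positions 36182724 to 36182783, mm9, minus strand). Tumors 1 and 2 were below all healthy skin, and tumor 3 was at the level of healthy skin 1. The means were 2.31 ± 0.76 in tumors and 3.35 ± 0.26 in healthy skin (SD, n = 3 each). The log2 fold change was -1.04 ± 0.42 (SE), with a 95% interval of -2.02 to -0.06 before adjustment and a limma adjusted p of 0.106. Leaving out tumor 3 gave -1.45 and an adjusted p of 0.036, the only one of 21 alternative settings in which Ahr passed. A dimmer Ahr probe at 36188523 to 36188582 had -5.60, -5.48 and -3.64 in tumors, against -3.64, -3.57 and -3.30 in healthy skin. It was well above background on 2 of 3 tumor arrays. It showed the same order of arrays, with tumor 3 again level with healthy skin 1 (log2 fold change -1.41 ± 0.53 SE, limma adjusted p = 0.0885 with every probe tested).

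The protein partners of the receptor were counted together with it and its direct inhibitors. Of these 9 genes, 1 rose (11.1%) and 2 fell (22.2%), against 10.3% and 15.6% of all features. The other 6, Ahr among them, did not pass, and the median log2 fold change was -0.30. Tiparp was the 1 that rose, and Ahrr was among those that fell. Arnt, the partner on DNA, had 0.85, 1.36 and 0.90 in tumors, against 1.46, 1.57 and 2.47 in healthy skin. All 3 tumors were lower, but the difference missed the threshold (log2 fold change -0.80 ± 0.36 SE, limma adjusted p = 0.138). Arnt2, a related partner best known from the nervous system, fell 2.82-fold (limma adjusted p = 0.0118) and was well above background on 1 of 3 tumor arrays. Its log2 fold change was -1.49, but -0.34 with normexp correction, and it passed in 14 of 19 alternative settings. The cytoplasmic chaperones Hsp90aa1, Hsp90ab1 and Ptges3 had log2 fold changes of 0.72, -0.30 and 0.36, with limma adjusted p from 0.254 to 0.521. Among these, Hsp90ab1 turned positive with median or spike-in scaling, Arnt with spike-in scaling, and Ptges3 negative within slide row 2.

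The inhibitors of the receptor moved in opposite directions. Ahrr fell 10.4-fold. Its log2 signals were -5.15, -5.31 and -4.01 in tumors, against -1.93, -1.50 and -0.88 in healthy skin (chromosome 13, positions 74348566 to 74348612, mm9, minus strand). Every tumor lay at least 2 log2 units below every healthy skin, and tumor 3 was the highest of the tumors, as it was for Ahr. The means were -4.82 ± 0.71 in tumors and -1.44 ± 0.53 in healthy skin (SD, n = 3 each), with a log2 fold change of -3.38 ± 0.45 (SE) and a limma adjusted p of 0.00271. Only 2 of 3 tumor arrays were well above background, so the size of the fold depends on the background correction: it was -1.55 with normexp correction and -1.88 in the authors' deposited values. Ahrr passed in all 20 alternative settings that gave it a value. The gene's other probe was not well above background on any array and carries no information.

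Tiparp, the inhibitor that ADP-ribosylates the receptor, rose 3.93-fold. It had 2.72, 3.44 and 2.51 in tumors, against 1.0, 1.11 and 0.64 in healthy skin (chromosome 3, positions 65358749 to 65358808, mm9, plus strand). The lowest tumor stood well above the highest healthy skin, and tumor 2 was the highest. The means were 2.89 ± 0.49 in tumors and 0.92 ± 0.25 in healthy skin (SD, n = 3 each), with a log2 fold change of 1.97 ± 0.34 (SE) and a limma adjusted p of 0.00694. It passed in all 21 alternative settings, at 1.57 to 2.96. Its other probe had 1.77, 2.36 and 1.35 in tumors, against 0.37, 0.33 and 1.30 in healthy skin. There healthy skin 3 nearly reached tumor 3, and the difference missed the threshold (1.16 ± 0.40 SE, limma adjusted p = 0.0694 with every probe tested).

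The DNA letters that the receptor reads stand in the promoters of both inhibitors, as they do in those of its classical targets Cyp1a1 and Cyp1b1, so the stretches around them are shown for these 4 genes. They are from RefSeq (GRCm38.p6, a different build from the probe positions), 5′ to 3′ on the gene's strand, with the core in capitals: GCGTG, or CACGC where the core is read on the other strand.
Ahrr: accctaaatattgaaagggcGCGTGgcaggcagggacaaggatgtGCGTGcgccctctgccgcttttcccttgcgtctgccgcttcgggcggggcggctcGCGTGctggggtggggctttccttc
Tiparp: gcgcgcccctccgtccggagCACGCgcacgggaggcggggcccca
Cyp1a1: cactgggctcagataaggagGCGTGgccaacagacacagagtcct
Cyp1b1: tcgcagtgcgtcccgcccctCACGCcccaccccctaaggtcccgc
The Ahrr stretch (chr13:74292334-74292458, minus strand) holds 3 cores, the nearer ones 82 and 27 bases before the gene's start and the third farther upstream. The Tiparp stretch (chr3:65528257-65528301, plus strand) holds 1, 170 bases before the start. The Cyp1a1 core (chr9:57697539-57697583, plus strand) lies 54 bases and the Cyp1b1 core (chr17:79715113-79715157, minus strand) 76 bases before the start. The window searched ran from 250 bases before to 50 after the start, on both strands. Of the 6 members with a promoter in the table, Ahrr and Tiparp held the core and Ephx1, Ugt1a6a, Sult1a1 and Fmo2 did not. The core is common: 32.4% of 32851 mouse promoters of this length hold it, and 26 of the 82 related genes found there do. A longer form of the core, TNGCGTG with N any base, stands in 5.07% of the 32851 promoters. The Ahrr promoter holds 1 copy of it, and those of Tiparp, Cyp1a1 and Cyp1b1 hold none. A match is a description of these letters and not a sign of binding.

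The target genes of the receptor did not move one way. Of the 10 measured, 3 rose (Tiparp, Nfe2l2, Xdh) and 5 fell (Cyp1a1, Ahrr, Aldh3a1, Ugt1a6a, Cyp1b1). These were 30% and 50%, against 10.3% and 15.6% of all features. The other 2, Nqo1 and Ugt1a6b, did not pass, and the median log2 fold change was -1.12. Tiparp, Ahrr and Ugt1a6a belong to the 9 genes, which were chosen with earlier results known. The calls of Ugt1a6a, Cyp1b1 and Xdh were each lost when some single arrays were left out. Cyp1a1, the oxidase used as the usual readout of the receptor, had -5.79, -5.74 and -2.56 in tumors, against 0.79, 1.76 and 0.64 in healthy skin. It fell 54.1-fold (limma adjusted p = 0.00421), and 1 of 3 tumor arrays was well above background. Its log2 fold change was -5.76, but -6.83 without tumor 3 and -3.78 with normexp correction, and the call was lost within slide row 2. Cyp1b1, the main activator of DMBA in skin, had -0.89, -1.83 and -0.14 in tumors, against 0.51, 1.09 and 0.94 in healthy skin. It fell 3.48-fold (limma adjusted p = 0.0262), a call lost without tumor 1, tumor 2, healthy skin 2 or healthy skin 3, with log2 fold changes of -2.20 to -1.36 over the single arrays left out. Tumor 3 was the highest of the 3 tumors for Ahr, Ahrr, Cyp1a1 and Cyp1b1, tumor 2 for Arnt, Tiparp and Ugt1a6a, and tumor 1 for Nqo1. Tumor 3 was the highest in 25.7% of all features and in 44.3% of those that fell.

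Among the other targets, Nfe2l2, which encodes the oxidative stress regulator NRF2, had 4.84, 4.81 and 4.47 in tumors, against 2.44, 2.68 and 2.09 in healthy skin. The groups were far apart, and it rose 4.93-fold (limma adjusted p = 0.00221). Xdh, xanthine oxidoreductase of purine breakdown, rose 2.71-fold (limma adjusted p = 0.0351), a call lost without tumor 1, tumor 2, healthy skin 1 or healthy skin 3 (log2 fold changes of 1.14 to 1.72 over the single arrays left out). Aldh3a1, an aldehyde dehydrogenase of surface epithelia, fell 5.96-fold (limma adjusted p = 0.00829), a call lost with spike-in scaling. Nqo1, the quinone reductase that both the receptor and NRF2 switch on, was higher in all 3 tumors (-0.08, -0.98 and -1.22, against -1.41, -1.87 and -1.96 in healthy skin), but did not pass (log2 fold change 0.99 ± 0.37 SE, limma adjusted p = 0.0902).

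**Figure D2:**
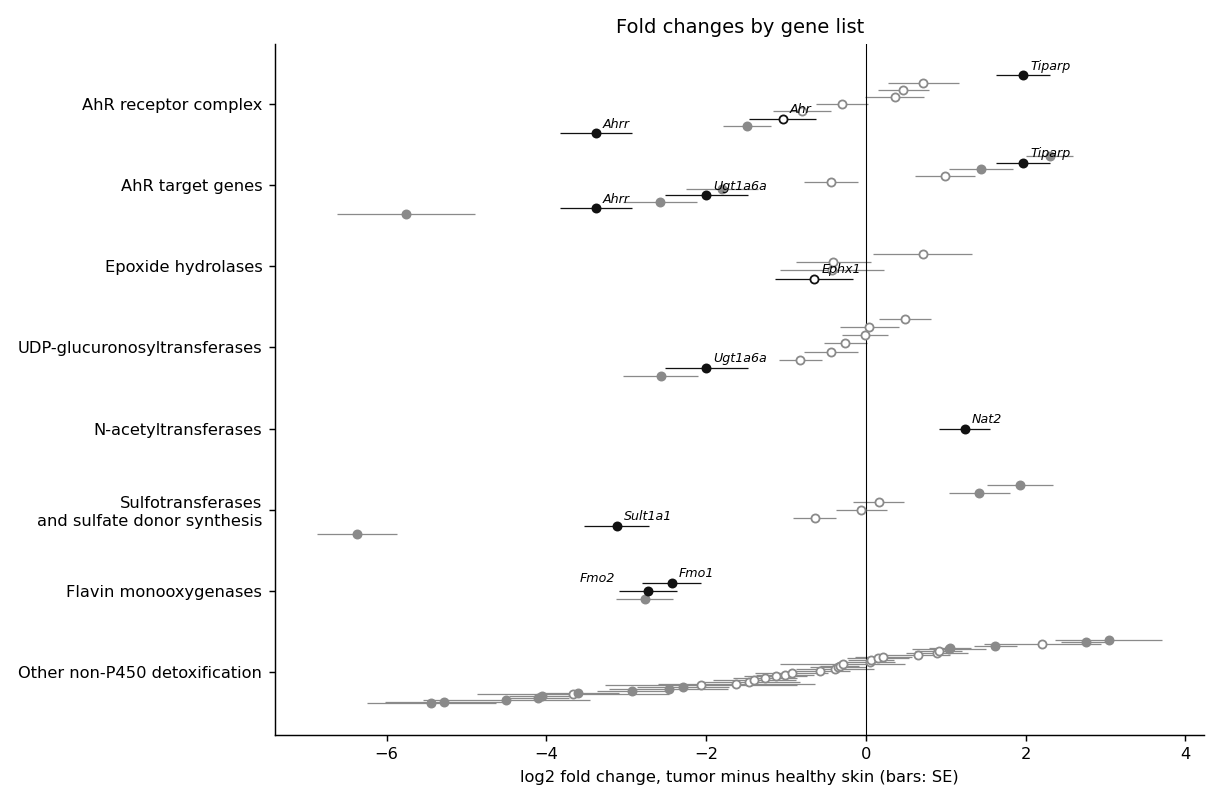
Log2 fold change, tumor minus healthy skin, with its SE (x axis) for each measured gene of 8 lists (y axis). Black points are the 9 genes named in the opening, grey points other genes of the list, and filled points passed limma's test. All 3 measured flavin monooxygenases lie below 0 and pass, the 4 epoxide hydrolases scatter around 0, and the target genes of the receptor spread from -5.76 (Cyp1a1) to 2.30 (Nfe2l2).

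Ephx1, the microsomal epoxide hydrolase that acts between the oxidation steps of DMBA activation, did not pass the test. Its log2 signals were 4.80, 4.76 and 3.61 in tumors, against 4.58, 4.63 and 5.92 in healthy skin (chromosome 1, positions 182919689 to 182919748, mm9, minus strand). Tumors 1 and 2 lay just above healthy skins 1 and 2, and the groups overlapped, with tumor 3 the lowest array and healthy skin 3 the highest. The means were 4.39 ± 0.67 in tumors and 5.04 ± 0.76 in healthy skin (SD, n = 3 each). The log2 fold change was -0.65 ± 0.49 (SE), with a 95% interval of -1.81 to 0.50 and a limma adjusted p of 0.355. It was -1.53 within slide row 2, where healthy skin 3 is the only healthy array, and 0.33 with spike-in scaling. A probe of Ephx1 at 182924124 to 182924183 gave 1.5, 1.21 and 0.44 in tumors, against 1.21, 0.95 and 0.79 in healthy skin. That probe placed the groups on top of each other (0.06 ± 0.35 SE, limma adjusted p = 0.907 with every probe tested). The 3 other epoxide hydrolases, Ephx2, which cleaves lipid epoxides in the cytosol, Ephx3, a skin epoxide hydrolase, and Ephx4, did not pass either (limma adjusted p = 0.657, 0.542 and 0.42).

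Sult1a1, which attaches sulfate to phenols, fell 8.71-fold. Its log2 signals were -1.40, -0.65 and -0.77 in tumors, against 1.95, 2.93 and 1.66 in healthy skin (chromosome 7, positions 133816657 to 133816716, mm9, minus strand). All healthy skins lay above the 75th percentile of their array and all tumors below it. The means were -0.94 ± 0.40 in tumors and 2.18 ± 0.67 in healthy skin (SD, n = 3 each). The log2 fold change was -3.12 ± 0.41 (SE), with a limma adjusted p of 0.00267, and every array was well above background. The call was lost in 1 of 21 alternative settings, with spike-in scaling (-2.14, limma adjusted p = 0.0879). A neighbouring probe fell 10.4-fold (limma adjusted p = 0.00178 with every probe tested). The probe's sequence is shown because its neighbour shares 8 bases with it, so the 2 read adjoining stretches of 1 transcript end and are not independent. It is given on the gene's strand, with a TGA stop codon that closes its open reading frame in capitals.
Sult1a1: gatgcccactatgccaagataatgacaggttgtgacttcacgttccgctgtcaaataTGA

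The other sulfotransferases were divided. Of the 7 measured genes of sulfate transfer and sulfate donor synthesis, 2 rose and 2 fell (28.6% each). Over all features 10.3% rose and 15.6% fell. The median log2 fold change of this list was -0.06. Sult5a1, a little studied member, had -3.31, -4.22 and -2.97 in tumors, against 2.28, 2.53 and 3.79 in healthy skin. It fell 82.6-fold (limma adjusted p = 0.000541), with 2 of 3 tumor arrays well above background. Its log2 fold change was -6.37, but -5.08 with normexp correction and -7.29 with the slide row as a block. Sult2b1, the cholesterol sulfotransferase of differentiating keratinocytes, had 6.45, 5.12 and 5.30 in tumors, against 3.35, 3.77 and 3.94 in healthy skin. It rose 3.82-fold (limma adjusted p = 0.015), a call lost within slide row 2. Papss2, which makes the sulfate donor, rose 2.67-fold (limma adjusted p = 0.0334), and this call held only without healthy skin 3 when single arrays were left out (log2 fold changes of 1.12 to 1.79). Of the 23 genes listed, 15 had probes that did not pass the detection filter.

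The flavin monooxygenases, which put oxygen on nitrogen and sulfur atoms, all fell. Fmo2, best known as the lung form, had log2 signals of -2.56, -3.19 and -2.78 in tumors, against -0.64, 0.40 and -0.09 in healthy skin (chromosome 1, positions 164806827 to 164806886, mm9, minus strand). The groups did not overlap. The means were -2.84 ± 0.32 in tumors and -0.11 ± 0.52 in healthy skin (SD, n = 3 each), a 6.65-fold fall (log2 fold change -2.73 ± 0.36 SE, limma adjusted p = 0.00257). Fmo1, a form of kidney and fetal liver in humans, had -4.15, -3.18 and -3.60 in tumors, against -1.50, -0.71 and -1.44 in healthy skin (chromosome 1, positions 164760037 to 164760096, mm9, minus strand). Tumors again lay wholly below healthy skin, though only 2 of 3 tumor arrays were well above background. The means were -3.64 ± 0.49 in tumors and -1.22 ± 0.44 in healthy skin (SD, n = 3 each), a 5.37-fold fall (log2 fold change -2.43 ± 0.37 SE, limma adjusted p = 0.00452). As for Ahrr, the size depended on the background correction, with -1.40 under normexp correction and -1.59 in the authors' deposited values. The same settings gave -1.97 and -2.14 for Fmo2.

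A separate Fmo1 probe at 164780212 to 164780271 had -5.93, -6.25 and -5.86 in tumors, against -4.54, -3.73 and -3.41 in healthy skin. It fell as well (log2 fold change -2.12 ± 0.36 SE, limma adjusted p = 0.00667 with every probe tested), with 1 of 3 tumor arrays well above background. Fmo5, the only other family member that could be tested, had -0.75, -1.63 and -0.73 in tumors, against 1.48, 1.55 and 2.16 in healthy skin. It fell 6.81-fold (limma adjusted p = 0.00267). The 3 genes thus had a median log2 fold change of -2.73, and each was lower under every scaling tried. Fmo1, Fmo2 and Fmo5 missed the threshold with spike-in scaling (for Fmo1 and Fmo2, log2 fold changes of -1.44 and -1.75, limma adjusted p = 0.213 and 0.116). Fmo4, Fmo6 and Fmo9 did not pass the detection filter.

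Ugt1a6a, which attaches glucuronate to phenols, fell 4.01-fold on its probe, but the call was not stable. Its log2 signals were -5.79, -3.76 and -4.60 in tumors, against -2.99, -2.88 and -2.27 in healthy skin (chromosome 1, positions 90116514 to 90116573, mm9, plus strand). All tumors were lower, with tumor 1, the array of highest background, far below the others, and 2 of 3 tumor arrays well above background. The means were -4.72 ± 1.02 in tumors and -2.71 ± 0.39 in healthy skin (SD, n = 3 each), with a log2 fold change of -2.0 ± 0.52 (SE) and a limma adjusted p of 0.0296. Over the 20 alternative settings that gave the gene a value, its log2 fold change was -2.48 to -0.45, and it passed in 6 of them. Among single arrays left out, it passed only without tumor 2. The log2 fold changes were -1.47, -2.48 and -2.06 without tumors 1, 2 and 3, and -2.14, -2.09 and -1.78 without healthy skins 1, 2 and 3, with limma adjusted p of 0.0542 to 0.0861 where the call was lost.

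The Ugt1a genes share their last exons, and the array's annotation assigns this probe to 4 of them (Ugt1a1, Ugt1a10, Ugt1a6a and Ugt1a7c), so its signal cannot be given to Ugt1a6a alone. None of the 4 other probes of the locus passed the test. The nearest, named for Ugt1a6b and assigned to 4 genes including Ugt1a6a, had 4.32, 4.72 and 3.85 in tumors, against 4.34, 4.84 and 5.02 in healthy skin. Its groups overlapped (log2 fold change -0.44 ± 0.34 SE, limma adjusted p = 0.37 with every probe tested). The probe assigned to Ugt1a6b by itself had -1.03, -0.07 and -1.57 in tumors, against -2.12, -2.21 and -4.10 in healthy skin. There the tumors were all higher, just short of the threshold (1.92 ± 0.62 SE, limma adjusted p = 0.0571 with every probe tested). The Ugt1a10 probes had log2 fold changes of 0.49 and 0.82, neither past the test.

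**Figure D3:**
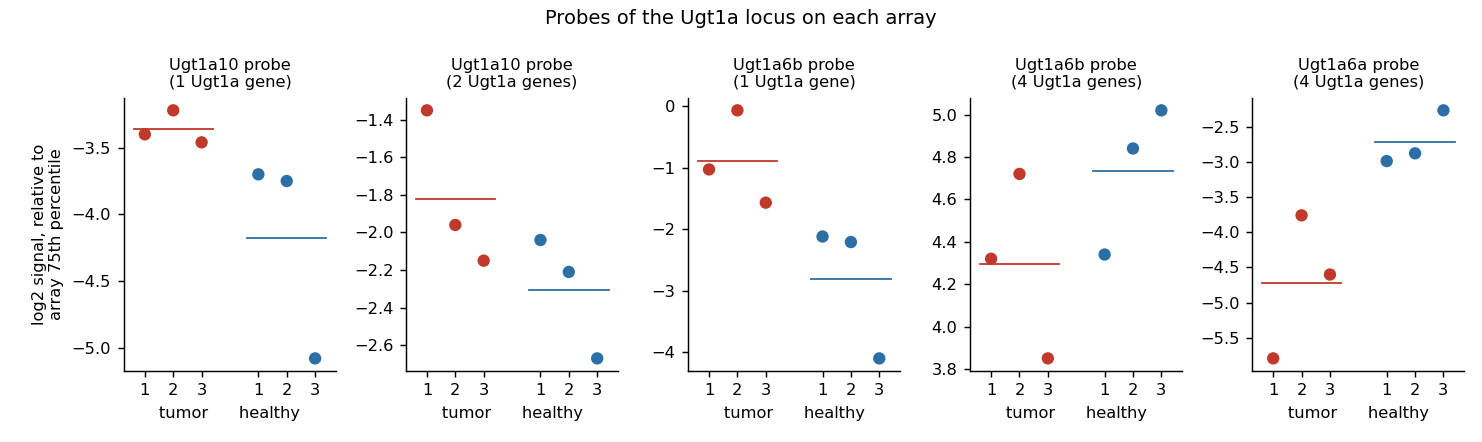
Log2 signal relative to the array's 75th percentile (y axis, one scale per panel) for the 5 probes of the Ugt1a locus on the 3 tumor arrays (red, left) and the 3 healthy skin arrays (blue, right), with group means as lines. The number of Ugt1a genes that the array's annotation assigns to each probe stands above its panel. Tumors lie below healthy skin on the Ugt1a6a probe and above it on the probe assigned to Ugt1a6b by itself, which did not pass the test.

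In the wider glucuronidation list, 8 of 24 genes were measured, 2 fell (25%) and none rose. Over all features 15.6% fell and 10.3% rose. The median log2 fold change of this list was -0.35. Ugt3a2, which in humans uses other sugar donors, was the second that fell, 5.94-fold (limma adjusted p = 0.00881), with 1 of 3 tumor arrays well above background. Its log2 fold change was -2.57, but -0.81 with normexp correction, and it passed in 15 of 19 alternative settings. Ugdh, which makes the glucuronate donor, had a log2 fold change of 0.04 (limma adjusted p = 0.95).

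Nat2, which acetylates aromatic amines and in the mouse plays the part that NAT1 has in humans, rose 2.37-fold. Its log2 signals were -0.33, 0.45 and 0.01 in tumors, against -1.34, -0.84 and -1.41 in healthy skin (chromosome 8, positions 70026092 to 70026151, mm9, plus strand). The groups did not overlap, and the nearest pair was tumor 1 and healthy skin 2. The means were 0.04 ± 0.39 in tumors and -1.20 ± 0.31 in healthy skin (SD, n = 3 each), with a log2 fold change of 1.24 ± 0.32 (SE) and a limma adjusted p of 0.0296. The array carries this probe on 10 spots, whose SD within an array was 0.066 to 0.187, so the spread between arrays was larger than the spread between spots. Nat2 was higher in tumors in all 21 alternative settings and passed in 14. The call was lost without tumor 2 (log2 fold change 1.04), tumor 3 (1.26), healthy skin 1 (1.17) or healthy skin 3 (1.14). Nat1 and Nat3, the other mouse N-acetyltransferases, were not well above background on any array.

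By the values of its 6 arrays, each centred on its own mean, the patterns most like that of Tiparp were those of Dap, Mphosph6 and Gnb1, with root mean square differences of 0.10, 0.11 and 0.13 log2 units. Those most like Ahrr were Sh3gl2, Gstt1 and Fign, at 0.15, 0.16 and 0.18. A likeness over 6 arrays in 2 groups is a description only.

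The arrays lay in 2 rows of 1 slide, with healthy skins 1 and 2 in row 1 and healthy skin 3 with all tumors in row 2. Within row 2 there is 1 healthy array, so the spread comes from the tumors alone and healthy skin is assumed to vary like them. Under that assumption Ahrr, Tiparp, Sult1a1, Fmo1 and Fmo2 passed, with log2 fold changes of -3.94, 2.25, -2.60, -2.20 and -2.75. Ahr (-1.30), Ephx1 (-1.53), Ugt1a6a (-2.45) and Nat2 (1.45) did not. With the row as a block the fold changes were the same by construction, and Nat2 passed as well. These values rest on healthy skin 3 as the single healthy array, the dimmest of the 6: the signal at its 75th percentile was 242 intensity units, while the other arrays had 525 to 897.

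**Figure D4:**
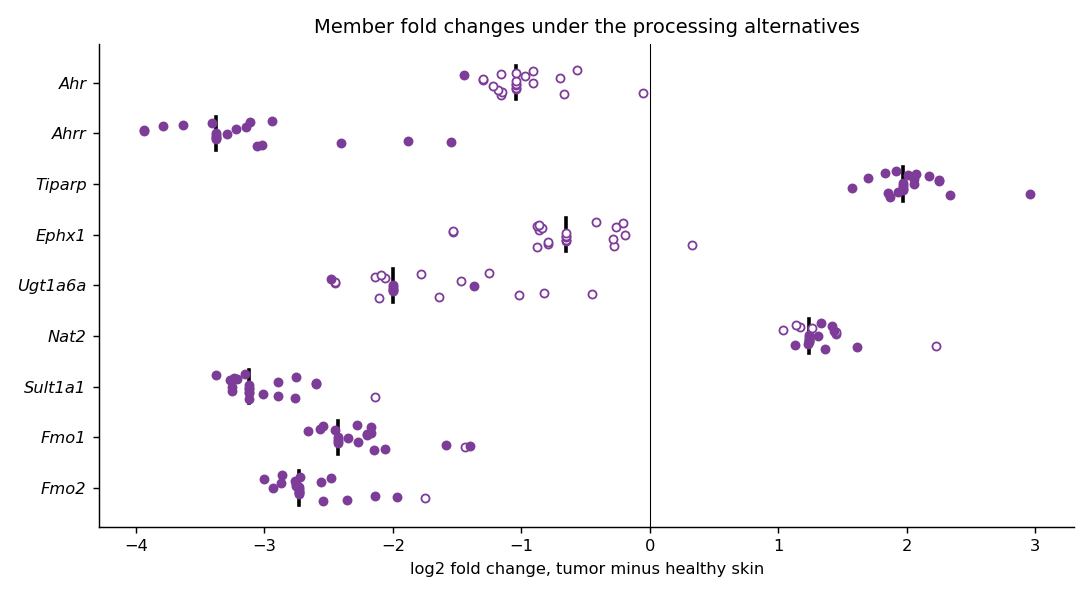
Log2 fold change, tumor minus healthy skin (x axis), of each gene (y axis) under the alternative settings. Black bars mark the reported value, filled points settings in which limma's adjusted p was under 0.05, and open points the others. Ahrr and Tiparp are filled throughout, Sult1a1, Fmo1 and Fmo2 are open once each, Ugt1a6a and Nat2 are mixed, Ahr is filled once, and Ephx1 is open throughout.

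The remaining detoxification genes moved in both directions. Outside the 9 genes, 65 of 105 listed related genes were measured; 8 rose (12.3%) and 16 fell (24.6%), against 10.3% and 15.6% of all features, with a median log2 fold change of -0.39. With median scaling 12 rose and 14 fell. Of these 24 calls, 17 held when any single array was left out. In the list of other oxidases, reductases, hydrolases and methyltransferases, 4 of 36 rose and 9 fell (median -0.75). The largest fitted falls were those of Ces1d, a carboxylesterase (43.5-fold, limma adjusted p = 0.00405, 2 of 3 tumor arrays well above background, log2 fold change -5.44, but -6.28 without tumor 2, -4.59 without tumor 1 and -3.65 with normexp correction), Pon1, a serum esterase, and Inmt, an amine methyltransferase. Pon1 was not well above background on any tumor array and was at least 9.44-fold lower there (limma adjusted p = 0.00339). Its place therefore rests on a level that was not measured: Aldh1a1, Adh1 and Maob, chosen after their values were seen and measured on all 6 arrays, fell 17.2-fold, 16.6-fold and 12.1-fold. Inmt fell 22.7-fold (limma adjusted p = 0.0207), with log2 fold changes of -5.84 to -3.66 over the single arrays left out and a call lost without tumor 1, tumor 3, healthy skin 1 or healthy skin 2, and with normexp correction.

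The largest rises on that list were those of Ces2e, another carboxylesterase, at 8.23-fold (limma adjusted p = 0.017), the aldo-keto reductase Akr1b8 and the quinone reductase Nqo2. Akr1b8 had 5.29, 4.74 and 4.89 in tumors, against 2.17, 2.58 and 1.92 in healthy skin, and rose 6.74-fold (limma adjusted p = 0.00147). Nqo2 had 2.09, 2.35 and 1.92 in tumors, against 0.62, 0.56 and 0.33 in healthy skin, and rose 3.07-fold (limma adjusted p = 0.00627). Ces2e varied among the tumors (2.14, 0.82 and -0.68, against -2.79, -2.0 and -2.06 in healthy skin), while Akr1b8 and Nqo2 were close in all 3. The log2 fold change of Ces2e was 3.04, but 2.35 without tumor 1 and 3.76 without tumor 3, and the call was lost within slide row 2.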

How the data were processed

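Total RNA of 6 biopsies was labelled with Cy3 and hybridised to 1-colour Agilent arrays, per the labels' protocols. Per the file headers, the authors' deposited intensity values came from Feature Extraction 10.7.3.1, which subtracts a background from each spot. The authors' deposited table of log2 values ranks probes as the median spot signal does (Spearman correlation 1); its background correction and centring remain unknown. Per the submitters' processing notes limma was used, with no version named.

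The 9 genes and the lists were chosen with earlier results of these data known. Each array's log2 signal was set relative to its 75th percentile over 59305 non-control spots. Outlier spots were left out (180 of 55681 probes lost), a probe was kept if at least 3 of 6 arrays had it well above background (34283 probes), and the brightest probe stood for its gene. Probes were named through RefSeq (GRCm38.p6, names only), and positions come from the array's own annotation (mm9). The test was limma 3.58.1 under R 4.3.3 (lmFit, eBayes, two-sided, Benjamini-Hochberg), with no block. Whether each biopsy is from a mouse of its own is not in the labels; the p-values therefore reflect only the spread among these samples, and 3 arrays a group limit the precision. Promoter sequences are from RefSeq.

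Named were all 9 genes and their probes, the measured genes of 5 lists (receptor complex, receptor targets, epoxide hydrolases, N-acetyltransferases, flavin monooxygenases) and, of the others, up to 3 of the largest rises and falls that passed with groups apart. Ugdh and the Ugt1a10 probes were added after their values were seen. A few list genes are not reported here. Where the dim group was not above background on any array, the fold is a bound: the bright group's mean was set against a dim-group mean in which each array entered with its own value or, if greater, with that array's dimmest detected probe. Alternatives tried were scaling by quantiles, by the median or by spike-in RNA, normexp correction with an offset of 50, the authors' values, no filter or a stricter one, the mean of probes, every probe, a variance trend, array weights, blocks by replicate number or slide row, row 2 alone, and leaving out each array. Across features, Pearson r was 0.959 to 0.966 between tumors, 0.937 to 0.971 between healthy skins and 0.821 to 0.894 between the groups. Between 48.7% and 65.4% of spots were well above background, fewest on tumor 1, whose median background was 85 intensity units against 23 to 26 on the others.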

Additional observations from a re-analysis of the deposited data

How the results depend on the processing

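Ahrr and Tiparp passed in every setting that gave a value, and Sult1a1, Fmo1 and Fmo2 in all but spike-in scaling. Ephx1 reversed to 0.33 with spike-in scaling, under which the median of all features was 0.82, against -0.16 as reported. With median scaling that median was 0.21, and 4389 of 6975 differing features were higher in tumors, against 2553 of 6420; with spike-in scaling it was 2266 of 3009. The cause of these shifts was not tested. With spike-in scaling 1 of the 9 genes rose and 1 fell, and 7 related genes fell. Without the detection filter 3920 features differed, 1 of the 9 genes rose and 5 related genes rose. With probes well above background on all 6 arrays, Ahrr, Ugt1a6a and Fmo1 gave no value, 2 of the 9 genes fell and 8 related genes fell. Array weights gave 9857 features. Within slide row 2, 1 of the 9 genes rose, and 5 related genes rose and 7 fell. Over the single arrays left out, 3840 to 5458 features differed, 1 to 2 of the 9 genes rose and 4 to 5 fell, and 5 to 7 related genes rose and 12 to 16 fell. Without healthy skin 3 and tumor 1 together, a setting chosen after seeing the data, 5157 features differed, 2 of the 9 genes rose and 4 fell.

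The labels do not say whether the replicate numbers pair the samples. Deviations from the group mean correlated at 0.103, 0.129 and -0.083 between same-numbered tumor and healthy arrays. Between differently numbered arrays they correlated at -0.275 to 0.166. With 3 arrays a group these deviations are not independent, so the correlations cannot decide whether the samples are paired. With the replicate number as a block 5470 features differed, and 2 of the 9 genes rose and 5 fell. Not every array correlated best with its own number. Levels of Ahrr, Fmo1 and Ugt1a6a in tumors lie close to background, and their fold changes were smaller with normexp correction.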
